A study of Mus musculus with 4 samples.

Results

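Recycling germinal center (GC) B cells were the 82 cells that carry this name in the study's deposited annotation, out of 9804 annotated GC B cells. They were chosen by that name alone, and each was matched by library and barcode to the deposited counts. The cells came from spleens sorted for B220+IgD-, a fraction that holds GC B cells, 10 days after mice were immunized with sheep red blood cells (SRBC). Droplet-based sequencing of transcript 3′ ends gave 1 library from 1 mouse for each of 4 genotypes. All mice carried Cg1Cre+/-, a Cre recombinase driven from the Cγ1 antibody locus, which is active in GC B cells. Mice with no floxed allele are called WT. The others carried Crebbp fl/+ (C), Kmt2d fl/+ (K) or both alleles (CK), which removes 1 copy of these chromatin regulators where the Cre is active. Where 4 library values stand together, WT comes first, then C, K and CK.

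The 4 libraries contributed 8, 10, 15 and 49 recycling cells, so the CK mouse weighs most in every pooled value. The study named subtypes by transferring labels from earlier data sets. The labels therefore rest on the same transcripts that are described here, and no p-value was computed between subtypes. With 1 library per genotype, differences between genotypes have no replicate check, and the differences between subtypes are given by library for the genes that matter most. Each interval is a 95% interval and reflects only the error of counting.

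GC B cells divide and mutate their antibody genes as centroblasts (CB) in the dark zone (DZ), and compete for antigen and T cell help as centrocytes (CC) in the light zone (LZ). Some selected LZ cells grow, enter the cell cycle and return to the DZ, and these are the cells known as recycling. The transcription factor Myc is induced for a short time in selected cells, and it is known for raising genes of ribosome assembly, nucleotide synthesis and growth. Help arrives in large part through CD40, which activates NF-kB. Recycling cells were compared with CC, with cells in transition from CB to CC, and with early CB.

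Recycling cells held the most RNA of the 6 annotated subtypes. Their median was 6244 unique molecular identifiers (UMIs, each counting 1 captured transcript) per cell, with single cells from 3601 to 9288. The median was 3404 in CC, 4284 in transitioning cells and 5596 in early CB. Library medians of recycling cells were 6926, 6072, 7615 and 5820 UMIs, the highest of the 6 subtypes in 4 of 4 libraries. No annotated cell was listed with more than 2499 genes, and 33 of the 82 recycling cells (40.2%) lay at 2300 genes or more. That share was 2.09% in CC and 25.7% in early CB, so the upper end of the annotation lies closest to the recycling cells. Unspliced UMIs made up a median of 20.6% in recycling cells and 28.9% in CC. Doublets were called among 4 recycling cells (4.88%), against 8.101% of CC and 10% of early CB. Between all pairs of libraries, 143 barcodes were shared, and none of them was a recycling cell.

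**Figure D1:**
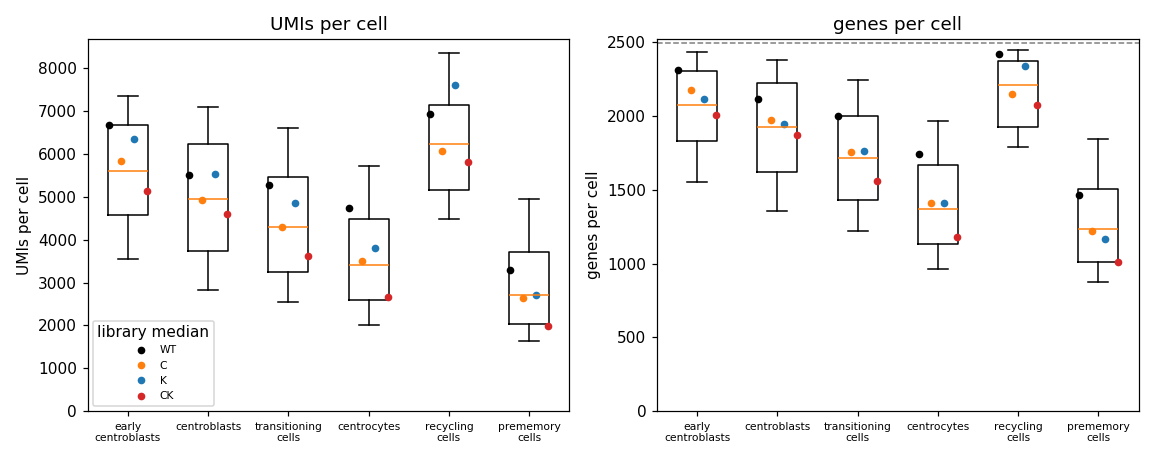
UMIs per cell (left) and genes per cell (right) in the 6 annotated subtypes, with boxes for the quartiles and median, whiskers from the 10th to the 90th percentile of cells, dots for library medians, and a dashed line at the highest gene number listed, 2499. Recycling cells have the highest median UMIs, 6244, and lie close to the dashed line.

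The label was checked against Myc, against Ccnd2, which encodes the cell cycle entry factor cyclin D2, and against Ncl, which encodes the nucleolar protein nucleolin. Ncl was above CC, transitioning cells and early CB. Its levels were 1150, 1720, 1275 and 1201 CPM (its UMIs relative to all UMIs, on the usual CPM scale) in the 4 libraries, above the 412 to 565 CPM of CC, the 454 to 564 of transitioning cells and the 645 to 791 of early CB. The pooled log2 ratio was 1.28 (1.16 to 1.402) over CC, 1.28 (1.16 to 1.39) over transitioning cells and 0.79 (0.67 to 0.92) over early CB. Ncl lies on chromosome 1, 86344719 to 86359400 in build GRCm38.

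Myc was near the limit of detection. The 4 libraries gave 2, 0, 1 and 6 UMIs, a pooled level of 17.5 CPM (7.99 to 33.2). That interval holds the 25.8 CPM of CC and the 17.4 CPM of early CB. The 0 in C allows a level of up to 48.2 CPM. A Myc UMI was found in 8 of 82 recycling cells (9.76%, exact interval 4.31 to 18.3%), against 5.97% of CC. In CB, a dividing DZ subtype, the share was 1.86% at a median of 4947 UMIs per cell. With each cell thinned to 2000 UMIs, the shares were 4.88% in recycling cells and 3.25% in CC. Myc lies on chromosome 15, 61985391 to 61990374.

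Ccnd2 gave 1, 2, 4 and 3 UMIs in the 4 libraries, a pooled level of 19.4 CPM (9.31 to 35.7). Its log2 ratio was -0.19 (-1.28 to 0.73) over CC, 3.42 (2.204 to 4.53) over transitioning cells and 2.64 (1.22 to 4.05) over early CB. Ccnd2 was thus above transitioning cells and early CB. Its 10 UMIs do not place it against CC, since the ratio was -1.39 with CC limited to the UMI range of most recycling cells. Prememory cells, the subtype annotated as precursors of memory cells, had higher pooled levels of all 3 genes, with 66.4 CPM for Myc, 296 for Ccnd2 and 1451 for Ncl. For Ncl this held in WT and CK and not in C and K. Ncl was thus above CC, whereas the data do not place Myc or Ccnd2 above CC. The labels rest on the same transcripts, so the level of Ncl is no independent check of the label. The cells are called recycling here only because the annotation does so.

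**Figure D2:**
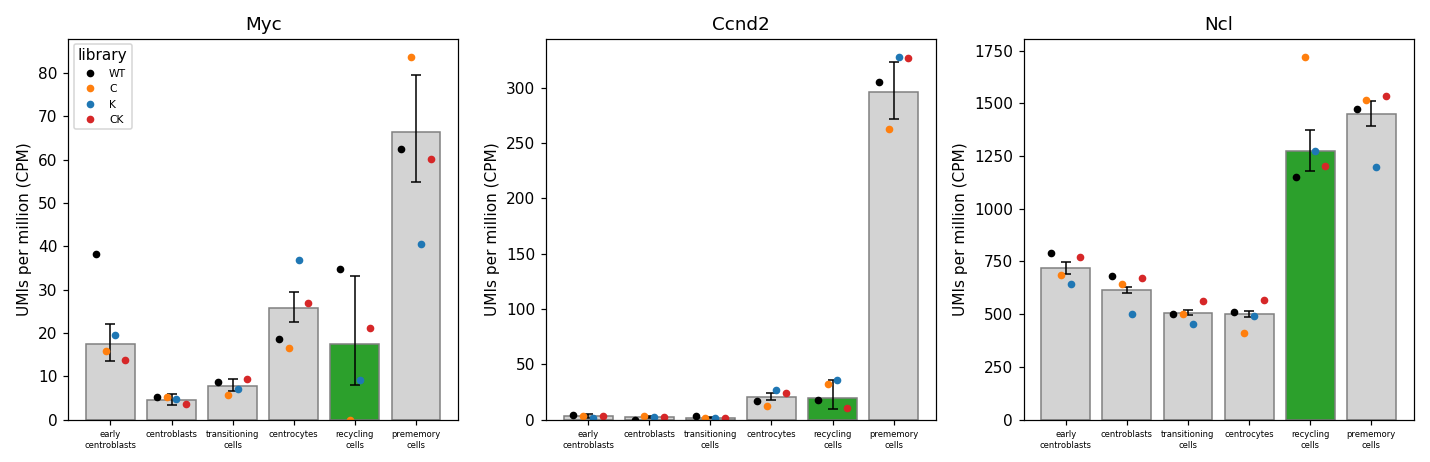
Level of Myc, Ccnd2 and Ncl in CPM in the 6 subtypes, with bars for pooled levels (recycling cells in green), error bars for 95% Poisson intervals and dots for the 4 libraries. Ncl in recycling cells reaches 1274 CPM, whereas Myc is at 17.5 CPM, and prememory cells have the highest bar in each panel.

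The deposited table also holds a score per cell for published gene sets, in which higher values mean more of the set relative to control genes. The score for genes raised in GC B cells with a GFP-MYC reporter had a median of 0.1399 in recycling cells, 0.0974 in prememory cells, 0.0638 in early CB and 0.004596 in CC. The score named for LZ genes raised after DEC-P had a median of 0.227 in recycling cells, 0.184 in prememory cells and -0.0192 in CC. Recycling cells had the highest median of the first score in 4 of 4 libraries and of the second in 3 of 4. The study used published signatures when it checked its clusters, so these scores are no independent check of the label. Along the deposited pseudotime, 12.8% of WT cells came before the median recycling cell, against 4.64% for early CB, 34.7% for transitioning cells and 80.8% for CC. The middle 50% of recycling cells lay between 7.6 and 17.2%.

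Markers of other cells that the sort could hold were scarce. All 8 myeloid and all 6 natural killer markers had 0 UMIs in recycling cells. Of 10 T cell markers, Cd4, Cd8a and Cd28 had 0 UMIs, and the whole list summed to 118 to 183 CPM per library, against 159 to 202 in CC, 78.5 to 99.3 in transitioning cells and 97.02 to 132 in early CB. The only one with enough UMIs to compare, Lck, a kinase of T cell receptor signalling, had log2 ratios of -0.28 over CC, 1.103 over transitioning cells and 0.605 over early CB, and was called higher over the latter 2. The part of T cell RNA in the other results was not tested. The 7 markers of resting B cells summed to 45.2 to 305 CPM, against 452 to 702 in CC. Of 6 dendritic cell markers, 5 had 0 UMIs. Erythroid markers summed to 14.1 to 122 CPM, with Hba-a1 and Alas2 among those at 0.

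For each gene, the UMIs of recycling cells were divided by the number expected from the comparison cells of the same libraries, and the ratio is given on the log2 scale. A gene counts as higher or lower where it differed at least 1.5-fold and its interval left out 1. Over CC, 1051 of 5101 genes with at least 20 UMIs were higher (20.6%) and 684 were lower (13.4%). Over transitioning cells 642 of 5099 were higher (12.6%) and 605 lower (11.9%), and over early CB 444 of 5090 were higher (8.72%) and 527 lower (10.4%). The median over all genes was 0.06, -0.03 and -0.01 in these comparisons. Without the CK library the counts over CC were 690 higher and 316 lower.

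Genes of the nucleolus, where ribosomes are assembled, were higher in recycling cells than in any of the 3 subtypes. Of 30 genes listed, 25 of 27 measured genes were higher and 0 lower over CC, with a median log2 ratio of 1.34. Over transitioning cells 24 of 27 were higher, median 1.396, and over early CB 22 of 27, median 0.98, with none lower in either. The 3 sets of higher genes had 22 members in common. The summed list gave log2 ratios over CC of 1.203, 1.79, 1.25 and 1.23 in the 4 libraries, so all moved the same way. Prememory cells were close to recycling cells in this list, with a median of 0.779% of the UMIs of a cell against 0.825%. Where CC were limited to the UMI range of most recycling cells, 4479 to 8351, the median over CC was 0.97 and the log2 ratio of Ncl 0.79.

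Npm1, which encodes the nucleolar chaperone nucleophosmin, stood at 1916, 2009, 2315 and 1949 CPM in the 4 libraries. Every value lay above those of CC (709.8 to 1036 CPM) and early CB (943 to 1167 CPM). Log2 ratios were 1.27 (1.17 to 1.37) over CC, 1.34 (1.25 to 1.43) over transitioning cells and 0.98 (0.88 to 1.08) over early CB. Nop58, a core protein of the particles that methylate ribosomal RNA, stood at 366, 562, 353 and 365 CPM, against 98.7 to 114 in CC and 158 to 201 in early CB. The log2 ratio was 1.86 (1.62 to 2.08) over CC, 1.59 (1.37 to 1.805) over transitioning cells and 1.06 (0.82 to 1.29) over early CB. Nolc1, a nucleolar phosphoprotein, had log2 ratios of 1.86 (1.54 to 2.17) over CC and 1.19 (0.86 to 1.51) over early CB. For Mrto4, which acts in assembly of the large ribosomal subunit, these were 1.81 (1.496 to 2.11) and 1.595 (1.26 to 1.92). Gnl3, which encodes the nucleolar protein nucleostemin, had 1.56 and 1.66.

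Myc pairs with Max and binds the E-box CACGTG, a sequence that reads the same on both strands. RefSeq promoters of build GRCm38.p6, from 250 bases before to 50 after the start of a gene, were searched for these letters. The E-box was found in 15.4% (13.1 to 18.02%) of genes higher over CC, 10.1% (7.72 to 12.98%) of genes lower over CC and 12.8% of the other measured genes. Over early CB it was found in 20.7% (16.6 to 25.3%) of higher and 9.98% (7.25 to 13.3%) of lower genes. Among all genes measured, the share was 12.99% in the comparison with CC and 12.5% in that with early CB. Of all 27025 genes with a promoter, measured or not, 8.09% held it. Of 25 nucleolar genes 4 did (16%, 4.54 to 36.1%), an interval that holds the shares of all measured genes. These are descriptions of letters, and a match is not a bound site.

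The promoter stretches that follow show where the letters stand. Each holds an E-box, in capitals, before the start of a listed gene that was higher over all 3 subtypes, and among genes of this kind these 5 had the largest ratios over early CB. Listed genes with the letters only after the start, such as Mybbp1a, are not shown. The stretches are printed 5′ to 3′ on the strand of the gene. Nop2 encodes a nucleolar RNA methyltransferase, Derl3 a factor of protein quality control in the endoplasmic reticulum, Hspd1 a mitochondrial chaperone, Eif5a a translation factor and Nme1 a nucleoside diphosphate kinase.
Nop2 (chr6:125131786-125131865, + strand): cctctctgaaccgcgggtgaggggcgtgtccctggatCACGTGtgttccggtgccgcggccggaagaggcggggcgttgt
Derl3 (chr10:75893193-75893272, + strand): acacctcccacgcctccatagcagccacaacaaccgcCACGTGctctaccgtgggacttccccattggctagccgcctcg
Hspd1 (chr1:55088281-55088360, - strand): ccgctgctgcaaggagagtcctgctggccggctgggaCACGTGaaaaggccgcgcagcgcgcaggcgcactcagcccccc
Eif5a (chr11:69921418-69921497, - strand): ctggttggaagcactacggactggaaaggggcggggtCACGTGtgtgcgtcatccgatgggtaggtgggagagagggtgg
Nme1 (chr11:93968273-93968327, - strand): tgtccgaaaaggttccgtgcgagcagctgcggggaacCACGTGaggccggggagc

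The E-box began 60, 168, 80, 74 and 18 bases before the start of Nop2, Derl3, Hspd1, Eif5a and Nme1. The log2 ratio over early CB was 1.86 for Nop2, 1.29 for Derl3, 1.17 for Hspd1, 1.06 for Eif5a and 0.84 for Nme1. Derl3 rests on 19 UMIs and Nop2 on 28. Eif5a gave 1053 UMIs and stood at 1202, 1961, 2460 and 2072 CPM in the 4 libraries, above the 783 to 972 CPM of CC. Hspd1 stood at 488, 1029, 461 and 875 CPM, above the 159 to 247 CPM of CC, and was highest in C and CK.

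Enzymes that make nucleotides, polyamines and one-carbon units were higher as well. Of 16 listed, 14 of 14 measured genes were higher and 0 lower over CC, with a median log2 ratio of 1.41. Over transitioning cells 12 of 14 were higher, median 1.04, and over early CB 7 of 14, median 0.52, with none lower. The pooled sum of the list was 2736 CPM in recycling cells and 2304 CPM in prememory cells. Srm, which encodes spermidine synthase, was among the 5 highest genes over both transitioning cells and early CB. It stood at 157, 257, 308 and 249 CPM in the 4 libraries, against 25.1 to 50.95 in CC, 22.8 to 37.8 in transitioning cells and 65.9 to 97.02 in early CB. The log2 ratio was 2.43 (2.12 to 2.73) over CC, 3.002 (2.71 to 3.29) over transitioning cells and 1.798 (1.48 to 2.11) over early CB. Srm lies on chromosome 4, 148591503 to 148594993. Shmt1, of one-carbon metabolism, had a log2 ratio of 2.59 (1.97 to 3.19) over CC from 36 UMIs. Umps, of pyrimidine synthesis, was higher over CC, 1.99 (1.58 to 2.39), and had -0.03 (-0.41 to 0.34) over early CB.

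Translation factors and chaperones followed. Of translation factors, 9 of 12 measured genes were higher and 0 lower over CC, with a median log2 ratio of 0.91, and over early CB 6 of 12 were higher. Of chaperones, 12 of 12 measured genes were higher and 0 lower over CC, with a median log2 ratio of 1.06, and over early CB 8 of 12 were higher. Prememory cells came near in translation factors, with a pooled sum of 5836 CPM against 6263 in recycling cells. In WT they were above, at 5626 against 4634 CPM, and in C, K and CK below. In chaperones they stood at 13584 against 17208 CPM. Glycolysis gave less, with 5 of 9 enzymes higher over CC and 1 of 9 over early CB. That 1 was Ldha, lactate dehydrogenase A, at 993, 1334, 1130 and 1222 CPM in the 4 libraries, with a log2 ratio of 1.203 (1.08 to 1.33) over CC, 1.24 (1.12 to 1.36) over transitioning cells and 0.84 (0.71 to 0.97) over early CB. Of 7 measured genes of nutrient uptake and mTORC1, 1 was higher and 1 lower over CC. The higher gene was Tfrc, the transferrin receptor, with a log2 ratio of 1.91 (1.24 to 2.54) from 28 UMIs.

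**Figure D3:**
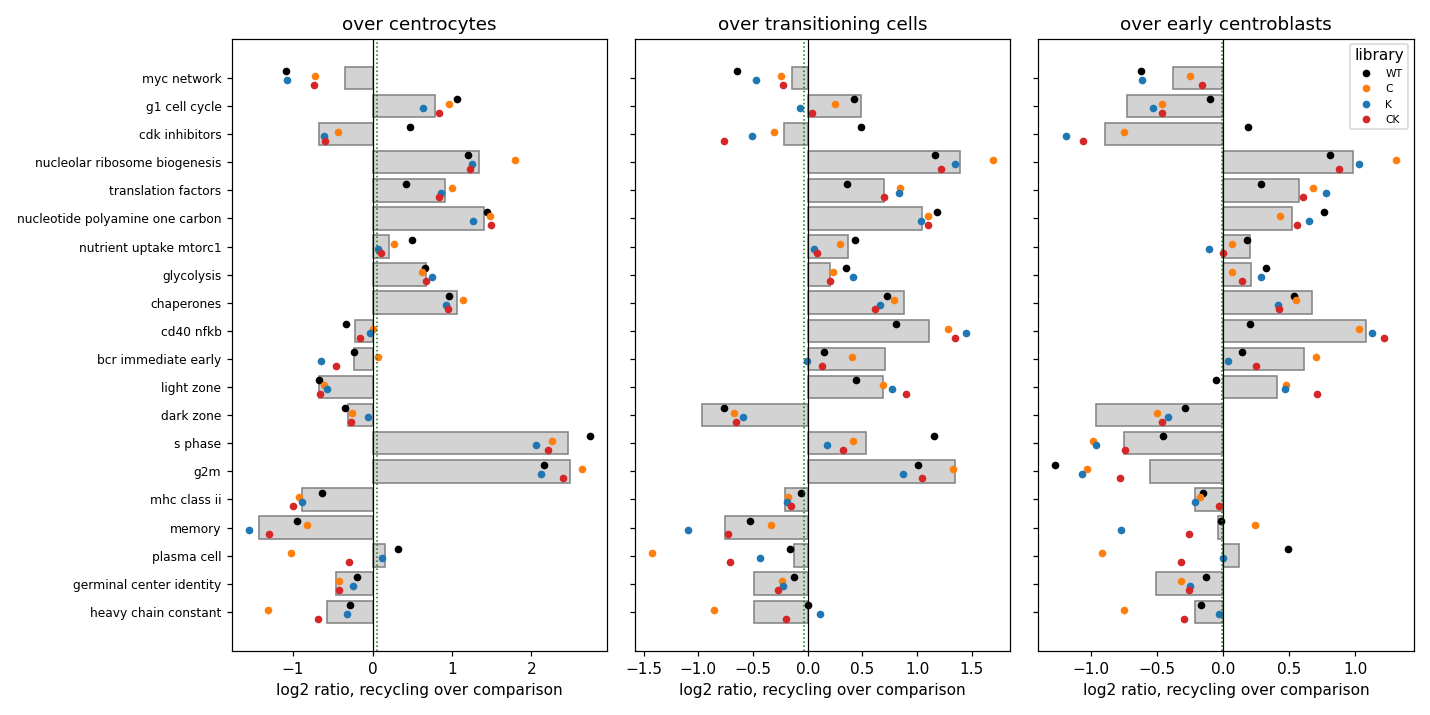
Log2 ratio of recycling cells over CC, transitioning cells and early CB for 20 gene lists, with bars for the median over measured genes, dots for the summed list in each library and a dotted line at the median of all genes. The nucleolar bar lies at 1.34, 1.396 and 0.98 in the 3 panels, and the S-phase bar at 2.46, 0.53 and -0.75.

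S-phase genes, which act in DNA replication, placed recycling cells between CC and early CB. Of 22 listed, 20 of 20 measured genes were higher and 0 lower over CC, with a median log2 ratio of 2.46. Over transitioning cells 9 of 22 were higher, median 0.53. Over early CB 15 of 22 were lower and 0 higher, median -0.75. Rrm2, a subunit of ribonucleotide reductase, had the highest ratio over CC of the genes named by rule. It stood at 296, 145, 154 and 256 CPM in the 4 libraries, above CC (7.11 to 12.9 CPM) and below early CB (693 to 928 CPM). Its log2 ratio was 4.33 (3.89 to 4.78) over CC, 1.58 (1.29 to 1.86) over transitioning cells and -1.96 (-2.24 to -1.69) over early CB. Pclaf, a partner of the replication clamp PCNA, stood at 888, 804, 624 and 864 CPM, with 3.84 (3.64 to 4.05) over CC and -1.64 (-1.78 to -1.496) over early CB. With CC of the same UMI range the S-phase median over CC was 1.797.

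Genes of G2 and mitosis also lay between these subtypes. Over CC 20 of 20 measured genes were higher, median 2.49, and over transitioning cells 19 of 22, median 1.35. Over early CB 11 of 23 were lower and 1 higher, median -0.56. Cdca8, of the complex that guides chromosome segregation, had 3.18 (2.69 to 3.66) over CC and -0.11 (-0.51 to 0.27) over early CB. Ccnb2, also listed, had 2.61 (2.06 to 3.13) over CC and 0.56 (0.06 to 1.03) over early CB. Outside this list, Esco2, which acts on sister chromatid cohesion, and Hist1h1b, a linker histone of replicating cells, were among the lowest over early CB. They had -2.84 (-3.52 to -2.23) and -2.33 (-2.68 to -2.004). By the deposited scores, 73 of 82 recycling cells (89.02%) had an S score above 0, against 8.59% of CC and all 680 early CB. A G2M score above 0 was found in 19 (23.2%), against 72.8% of early CB. Depth differs between the subtypes, and its part in these shares was not tested.

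Among genes at the entry to the cycle, 4 of 8 were higher over CC and 6 of 10 lower over early CB. Cdk4, the kinase that D cyclins activate, stood at 558, 418, 425 and 397 CPM in the 4 libraries, above the 132 to 183 CPM of CC. This gave log2 ratios of 1.52 (1.31 to 1.74) over CC, 0.84 (0.64 to 1.04) over transitioning cells and 0.12 (-0.09 to 0.33) over early CB. Ccnd3, the cyclin D3 gene, had 0.13 (-0.11 to 0.37) over CC and -0.61 (-0.86 to -0.37) over early CB. Of 5 measured genes of the Myc and Max network, 1 was lower over CC and none higher. This was Mxd4, whose product binds Max and opposes Myc. It stood at 0, 32.1, 18.1 and 24.6 CPM in the 4 libraries, below the 131 to 161 CPM of CC, with a log2 ratio of -2.75 (-3.76 to -1.91) over CC, -1.53 (-2.54 to -0.69) over transitioning cells and -0.73 (-1.77 to 0.16) over early CB. Max itself had 0.01 (-0.45 to 0.44) over CC. Of 4 measured CDK inhibitors and related genes, 1 was higher and 1 lower over CC. The higher was Rbl1, a relative of the retinoblastoma protein, with 1.54 (0.66 to 2.34) over CC, -0.09 (-0.91 to 0.63) over transitioning cells and -0.85 (-1.68 to -0.11) over early CB. The lower, Cdkn2d, an inhibitor of Cdk4, was also lower over transitioning cells and early CB, with -1.21, -1.198 and -1.28 from 13 UMIs.

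**Figure D4:**
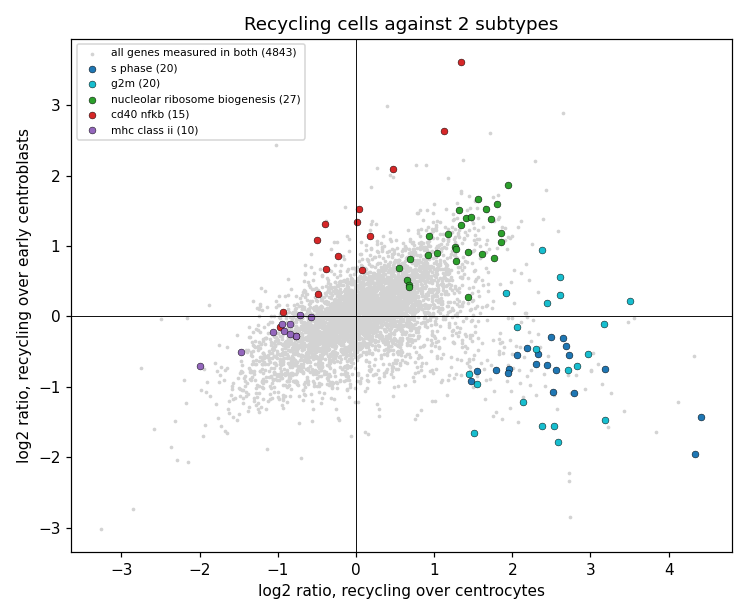
Log2 ratio of recycling cells over CC (horizontal axis) and over early CB (vertical axis), with 1 dot per gene measured in both and 5 gene lists in colour. Nucleolar genes lie at the upper right, with medians of 1.34 and 0.98, and S-phase genes at the lower right, with 2.46 and -0.75, and both axes share the recycling cells.

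Genes of the CD40 and NF-kB response were near the level of CC and above transitioning cells and early CB. Of 20 listed, 2 of 15 measured genes were higher and 2 lower over CC, with a median log2 ratio of -0.23. Over transitioning cells 10 of 15 were higher, median 1.11, and over early CB 10 of 15, median 1.08, with none lower. Summed over the list, recycling cells stood at 1446 to 1945 CPM, below the 1967 to 2222 of prememory cells. The summed list over early CB gave 0.201, 1.03, 1.13 and 1.22 in the 4 libraries, so WT, with 8 cells, was the lowest. Nfkbia, the NF-kB inhibitor that NF-kB itself induces, stood at 209, 225, 208 and 246 CPM and was above every transitioning library (59.9 to 79.97 CPM). Its log2 ratio was -0.23 (-0.51 to 0.04) over CC, 1.69 (1.41 to 1.97) over transitioning cells and 0.86 (0.56 to 1.16) over early CB. Bcl2a1d and Bcl2a1b, survival genes of the Bcl2 family, were among the 5 highest genes over transitioning cells, with 3.28 and 2.66, and had 2.63 and 2.095 over early CB. They are near-identical copies, so the split of reads between them is uncertain. Batf, a transcription factor of activated B cells, gave 52 UMIs in 16 cells, of which 1 cell held 32.7%, and 0 in WT. Its log2 ratio over CC was 1.34, and -0.12 in the 65 recycling cells of the largest cluster.

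Immediate early genes of antigen receptor signalling were sparse, with 5 of 13 measured and none called over CC. Over transitioning cells 4 of 5 were higher. Jund, an AP-1 factor with 279 UMIs, went the other way, at -0.40 (-0.58 to -0.23). The summed list gave 0.15 over transitioning cells. Ier2, an immediate early gene, had 0.31 (-0.25 to 0.83) over CC and 2.17 (1.59 to 2.71) over transitioning cells. Junb, an AP-1 factor, had -0.53 over CC and 0.61 over early CB, the latter -0.03 without CK.

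Listed LZ genes were lower than in CC and higher than in transitioning cells. Over CC 7 of 13 were lower and 0 higher, median -0.67, and over transitioning cells 8 of 13 were higher and 2 lower, median 0.68. Over early CB 4 of 12 were higher and 0 lower, median 0.41. The summed list over early CB gave -0.05, 0.47, 0.47 and 0.71 in the 4 libraries. Cd83, a surface protein of LZ cells, stood at 209, 386, 425 and 369 CPM in the 4 libraries. Log2 ratios were -0.501 (-0.72 to -0.29) over CC, 1.72 (1.49 to 1.94) over transitioning cells and 1.08 (0.84 to 1.32) over early CB. Il4i1, an amino acid oxidase, stood at 34.8, 129, 244 and 270.4 CPM, below CC (405 to 518 CPM), and WT lay within the 21.8 to 37.2 CPM of transitioning cells. Its log2 ratio was -1.03 (-1.31 to -0.76) over CC, 3.09 (2.77 to 3.39) over transitioning cells and 2.43 (2.06 to 2.796) over early CB. Fcer2a, which encodes CD23, had -1.88 (-2.58 to -1.26) over CC. The deposited LZ score gave another order, with a median of 0.0244 in recycling cells, 0.0147 in CC, 0.0669 in prememory cells and -0.0594 in transitioning cells, and recycling cells lay above CC in 3 of 4 libraries.

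MHC class II genes, which present antigen to T cells, were lower than in CC and near the other subtypes. Over CC 9 of 10 were lower, median -0.88, against 2 of 10 over transitioning cells and 1 of 10 over early CB. H2-Oa, a subunit of the protein that restrains peptide loading, stood at 69.7, 80.4, 108 and 70.2 CPM in the 4 libraries, below the 294 to 363 CPM of CC, with a log2 ratio of -1.99 (-2.47 to -1.54). The list took a median of 2.84% of the UMIs of a recycling cell and 5.49% of a CC, and no recycling cell exceeded the CC median.

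DZ genes were lower than in transitioning cells and early CB. Over transitioning cells 7 of 9 were lower and 1 higher, median -0.97, and over early CB 5 of 9 were lower, median -0.96. Over CC 4 of 9 were lower and 1 higher, median -0.30. The summed list over CC gave -0.35, -0.26, -0.06 and -0.27 in the 4 libraries. The deposited DZ score gave another order, with the median of recycling cells above that of CC in 3 of 4 libraries. The DZ gene that was higher over transitioning cells was Ung, a uracil glycosylase of DNA repair, with 1.22 (0.85 to 1.58). It had 3.49 (3.0004 to 3.97) over CC and -0.07 (-0.46 to 0.29) over early CB. Bach2, a repressor of plasma cell fate, was lower over all 3 subtypes, with -1.49, -1.52 and -1.38. Of genes of GC identity, 4 of 12 were lower over CC, Pax5 and Ebf1 among them. These B cell identity factors had log2 ratios of -1.04 (-1.51 to -0.5999) and -0.79 (-0.93 to -0.64).

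Genes of memory and rest were lower than in CC, 5 of 5 measured. Over transitioning cells 3 of 5 were lower, median -0.76, and over early CB 0 of 4, median -0.04. Klf2, a factor of quiescence, had -2.49 (-3.304 to -1.79) over CC, with 37.5% of its 16 UMIs in 1 cell. Btg1, which restrains proliferation, stood at 122, 145, 118 and 134 CPM in the 4 libraries, below the 364 to 513 CPM of CC. Plasma cell genes had no common direction, with 2 higher and 1 lower of 7 over CC.

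Other genes came to the fore outside the lists. Gstt2, a glutathione transferase, was among the 5 highest over early CB, at 122, 112, 172 and 105 CPM in the 4 libraries against 28.6 to 32.7 in early CB, with a log2 ratio of 1.97 (1.498 to 2.43). Shisa8 had 3.05 (2.52 to 3.55) over transitioning cells. Acp5, an acid phosphatase, was lower over all 3 subtypes, with -2.37, -2.38 and -1.85 from 12 UMIs. Traf5, an adaptor of TNF receptor signalling, and Pafah1b3 were among the lowest over transitioning cells, with -2.39 (-3.398 to -1.55) and -2.33 (-2.73 to -1.95).

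Ighm, the constant gene of IgM, gave the most UMIs of the heavy chain genes in 58 of 82 recycling cells (70.7%, 59.6 to 80.3%). At the same mix of libraries, it led in 76.1% of CC, 68.4% of transitioning cells, 71.5% of early CB and 92.9% of prememory cells. The interval of recycling cells holds the shares of the 3 compared subtypes and not that of prememory cells. Ighg3 led in 11, Ighg1 in 6 and Ighg2b in 6 cells. IgG genes resemble each other, so their split is uncertain.

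Recycling cells also varied among themselves. The nucleolar list took from 0.266 to 1.91% of the UMIs of a cell, with quartiles of 0.703 and 1.01%. Of the 82 cells, 80 lay above the upper quartile of CC, 0.392%, and 77 above that of early CB, 0.519%. The S-phase list took from 0.0506 to 0.8295%, and 78 cells lay above the upper quartile of CC and 0 above that of early CB. Over the 82 cells, the nucleolar and S-phase shares had a Pearson's r of -0.448 and a Spearman's rho of -0.412. This describes cells that share 4 libraries and whose shares have the same total.

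**Figure D5:**
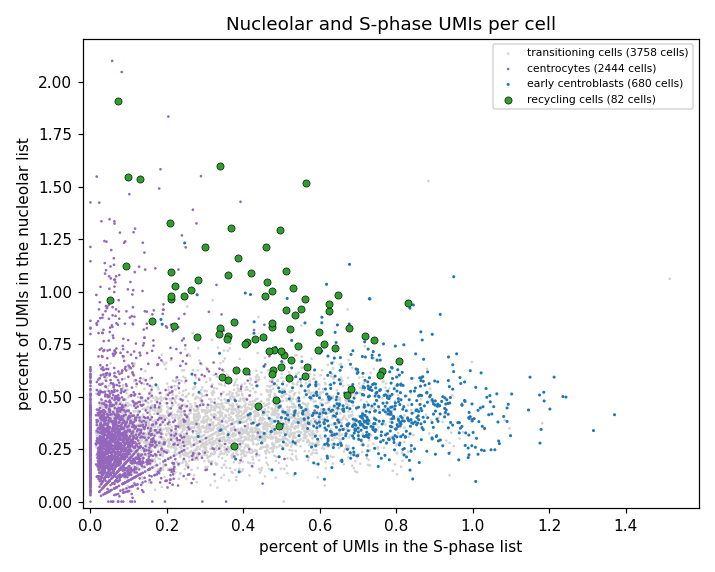
Percent of the UMIs of a cell in the S-phase list (horizontal axis) and in the nucleolar list (vertical axis), with 1 dot per recycling cell (green), CC, transitioning cell or early CB. Of the 82 recycling cells, 77 lie above 0.519% on the vertical axis, the upper quartile of early CB.

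In the deposited clustering the recycling cells were not a cluster of their own. Cluster 3, which holds 676 of 680 early CB, had 65 of them, beside 958 CB and 429 transitioning cells. Cluster 6, which holds 1223 of 2262 CB, had 9, cluster 2, which holds 2250 of 2444 CC, had 7, and cluster 4 had 1. The 7 cells of cluster 2 had a nucleolar level of 14779 CPM and a CD40 and NF-kB level of 3188 CPM, against 8300 and 1806 CPM in cluster 3. Their S-phase level was 1966 CPM, against 4956 in cluster 3. The 9 cells of cluster 6 had 3274 CPM in the G2 and mitosis list, against 1584 in cluster 3. All 8 WT cells were in cluster 3. Clusters were made from these same genes, so the levels describe them only.

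Among the 25 nearest annotated cells of each recycling cell, 27.1% were recycling cells, which were 0.836% of all annotated cells. Transitioning cells made up 29.8% (38.3% of all cells), CC 18.8% (24.9% of all cells), early CB 14.3% (6.94% of all cells) and CB 8.78% (23.1% of all cells). Prememory cells, which came close in nucleolar level, made up 1.27% (5.896% of all cells). At least 1 recycling neighbour was found for 80 of the 82 cells, and 11 had a majority of them. Within the same library the share of recycling neighbours was 21.5%.

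By genotype, recycling cells made up 0.652% in WT (0.282 to 1.28%) and 1.24% in CK (0.918 to 1.64%) of annotated cells, with exact binomial intervals. The other 2 mice lay near WT, at 0.581% in K (0.325 to 0.956%) and 0.49% in C (0.235 to 0.899%). Genotype and mouse cannot be told apart, and no test between genotypes was made. The libraries also differed in depth, with medians of 2948, 2292, 3201 and 2202 UMIs per barcode. No annotated cell had more than 2499 genes, a limit that lies close to the recycling cells. The part of depth and of this limit in the shares was not tested.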

How the data were processed

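Single-cell libraries of 4 mice were used, 1 per genotype. The labels name Cell Ranger 3.0, Seurat 4.0 and build mm10, and the matrix headers give software version 3.0.2. Raw counts of UMIs, over 31053 genes, were taken from the deposited matrices. A deposited cell table gives subtype names, a pseudotime rank, module scores made by the authors in Seurat, and the percent of mitochondrial UMIs that the authors computed. Libraries held 33270825 to 39803865 UMIs in all and recycling cells 514922. Its UMI counts were equal to those of the matrices for 79.9% of cells, the largest difference being 5. Ranks had been made for each mutant with WT, so position is given as the percent of WT cells that come earlier.

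UMIs of recycling cells were compared with those expected from each library's own comparison cells, weighted to the library mix of recycling cells, with exact conditional binomial intervals. At least 20 UMIs observed plus expected were required. A level at 0 was bounded by 3 counts. The method was tested on simulated counts drawn from the summed UMIs of each library, without variation between cells. Intervals held the true change in 91.3 to 97.09% of changed genes, and 2.18 to 2.35% of unchanged genes were called. This cannot show how the intervals do where 1 cell holds many UMIs of a gene. Named genes, from at least 40 UMIs, were the 3 largest ratios over CC of each list, the 12 highest and 12 lowest genes over CC, and the 5 highest and 5 lowest over each other subtype. The latter needed an interval leaving out 1, the same direction in at least 3 libraries and at most 20% of UMIs in 1 cell. Npm1, Gnl3, Nop2, Derl3, Nme1, Tfrc, Cd83, Nfkbia, Lck, Rbl1 and Mybbp1a were named after their values were seen. Some listed genes are counted but not reported here by name. The members and lists were chosen with earlier results of these data known. Scrublet's automatic limit called no doublet in C, so the highest scores were called at 0.8% per 1000 barcodes, a choice made after seeing the data. Doublets were kept except in an alternative. Neighbours were taken in 30 principal components. Other alternatives covered library weights, left-out libraries, thinning, minimum counts, totals, UMI range, cluster and promoter window. Software: scanpy 1.11.5, scikit-learn 1.9.0, scipy 1.17.1, numpy 2.4.6, pandas 2.3.3, matplotlib 3.10.9.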

Additional observations from a re-analysis of the deposited data

Results flagged for a closer look

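In 3 genes, single libraries lay on opposite sides of no change, each with an interval that left out 1, and the difference between libraries was not tested. Ighm over transitioning cells had a log2 ratio of 0.24 in K and -1.004 in C. Jund, an AP-1 factor, had 0.58 in WT and -0.31 in CK over early CB. Mzb1, a chaperone of antibody secretion, had 0.42 in WT, -0.77 in C and -0.4996 in CK over early CB.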

How the results depend on the processing

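No paired analysis was possible because the results come from no test, and each ratio already compares cells of the same libraries. Leaving out each library in turn gave 690 to 1021 higher and 316 to 632 lower genes over CC, 415 to 606 and 336 to 569 over transitioning cells, and 304 to 520 lower genes over early CB. The lowest counts were those without CK, which takes out 49 of the 82 cells and leaves fewer genes to test. Log2 ratios ranged from 1.17 to 1.53 for Ncl over CC, 1.19 to 1.43 for CD40 and NF-kB genes over transitioning cells, and 1.104 to 1.33 and -0.82 to -0.53 for G2 and mitosis genes over transitioning cells and early CB. For Junb over early CB they ranged from -0.0346 (without CK) to 0.83. Thinned to 2000 UMIs per cell, 591 genes were higher and 232 lower over CC, 347 and 266 over transitioning cells, and 237 and 228 over early CB, again with fewer genes tested, and G2 and mitosis genes had 0.96 over transitioning cells. Thinning moved the share of called genes that were higher over CC from 60.6 to 71.8%. With a minimum of 10 UMIs, or none, CD40 and NF-kB genes had 0.0186 over CC. With CC of like UMI range, log2 ratios over CC were 0.97 for nucleolar, -0.38 for CD40 and NF-kB and 1.797 for S-phase genes, -1.39 for Ccnd2 and 0.79 for Ncl. With recycling cells of cluster 3 alone, chosen after seeing the data, they were 2.07 for G2 and mitosis genes, 1.14 for Ncl and -0.12 for Batf, and G2 and mitosis genes had -0.88 over early CB. Recycling cells were 2.05, 1.91, 2.396 and 4.97% of CC and recycling cells together, and 0.0991, 0.1002, 0.185 and 0.381% of all barcodes. With 100 bases before the start searched, the E-box was in 6.497% of genes higher and 5.71% of genes lower over CC. The cause of these shifts was not tested. Of the list medians recomputed, 724 moved by less than the spread between libraries, 110 by more, and none that was called turned. Of the values of named genes, 3370 moved by less, 184 by more and 2 turned, those of Junb without CK and Batf in cluster 3. Low genes such as Myc rest on few UMIs, and the part of depth in their levels was not tested.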
